A study of Mus musculus with 6 samples.

Results

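Nodal signalling was described here through 10 genes of the pathway, out of 20220 genes measured on 6 arrays of mouse germ cells made in culture. The 10 genes are the ligands Nodal and Gdf3, the co-receptor Tdgf1, the receptors Acvr1b and Acvr2b, the signal transducers Smad2 and Smad3, their DNA-binding partner Foxh1, and the inhibitors Lefty1 and Lefty2. They were taken by name, each with every array probe that carries its symbol, which gave 13 probes, and the list was drawn up with the levels of these genes on the same 6 arrays already known. The difference between Dazl knockdown and control is therefore given for them as a description, with no test.

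The cells were male, of a mixed C57BL/6 and 129SV background, and were derived from Oct4-GFP embryonic stem cells. These cells carry green fluorescent protein under control of Oct4 (Pou5f1), a gene that pluripotent and germ cells share. Every line also carried a vector with the red marker tdTomato, holding either a short hairpin RNA against Dazl (hairpin 2 or hairpin 1) or a control. Dazl is a gene of the germ line whose protein binds RNA. Feeder cells were depleted by adhesion to plastic, the cells were differentiated for 12 or 9 days, and cells positive for both fluorescent markers were sorted, so Pou5f1 is the gene the gate reads. Each vector was measured once at each day, which gave 4 knockdown arrays (each hairpin at day 12 and at day 9) and 2 control arrays. Nothing in the labels states that cultures were separate, so every p-value measures only the spread between these samples, which may be technical.

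Nodal is a secreted factor of the transforming growth factor beta family that keeps the early epiblast pluripotent and patterns it into mesoderm and endoderm. It binds a type I and a type II activin receptor together with the membrane-anchored co-receptor Tdgf1 (Cripto). The receptors phosphorylate Smad2 and Smad3, which enter the nucleus and bind DNA with partners such as Foxh1. Nodal, Lefty1 and Lefty2 are themselves targets of the pathway, and the Lefty proteins block Nodal outside the cell, so the pathway feeds back on itself in both directions. In mouse germ cells Tdgf1 and Nodal have been studied as part of the regulation of male germ cell pluripotency.

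All levels below are log2 of the array signal with the 75th percentile of each array set to 0, so that a level above 0 is brighter than most probes of that array. Levels are compared between arrays for the same probe only. The 75th percentile stood at signals of 629 to 745.5 on the 6 arrays, and 70.3% to 73.3% of the probes were well above background. Dazl itself was at -3.05 to -1.84 on the 4 knockdown arrays, against 2.58 and 1.32 on the control arrays of day 12 and day 9. Its log2 difference was -4.30 (SE 0.28, lower in 4 of 4 pairs), with an adjusted p of 0.0864 from limma over all genes and 0.00655 to 0.730 over the alternative settings. Detection of germ cell markers was looked at for the labelled cell type. All 10 other measured markers of the list, among them Ddx4, Dppa3, Tfap2c, Kit and Stra8, were well above background on all 6 arrays, and Prdm14 was below the limit for testing. The same held for 18490 of the 20220 genes tested. It also held for 13 of 13 measured naive pluripotency markers, 9 of 9 mesoderm markers and 13 of 14 endoderm markers. Detection therefore does not tell germ cells from other cell types here.

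Nodal and Tdgf1 were higher on every knockdown array than on either control array, and Smad2 was lower on every knockdown array than on either control array. Nodal, the ligand of the pathway, was 1.60-fold higher in knockdown cells, and its co-receptor Tdgf1 was 2.04-fold higher. The inhibitors Lefty1 and Lefty2 were 2.31-fold and 2.75-fold higher in knockdown cells at day 9, while at day 12 the knockdown arrays lay on both sides of the control array. The receptors Acvr1b and Acvr2b, the transducer Smad3 and the partner Foxh1 had log2 differences of 0.03 to 0.15 over both days, each within its error. By day, the largest of these were 0.38 for Acvr1b at day 12 and 0.28 for Smad3 at day 9. Over the 10 genes, 9 had a higher mean in knockdown cells, with a median log2 difference of 0.24, beside a median of -0.0014 and a share of 49.8% higher over all genes tested. By day, each with a single control array, the counts were not alike: at day 12, 6 of the 10 were higher (median 0.03, with 51.6% of all genes higher), and at day 9, 8 of the 10 were higher (median 0.40, with 47.3% of all genes higher).

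**Figure D1:**
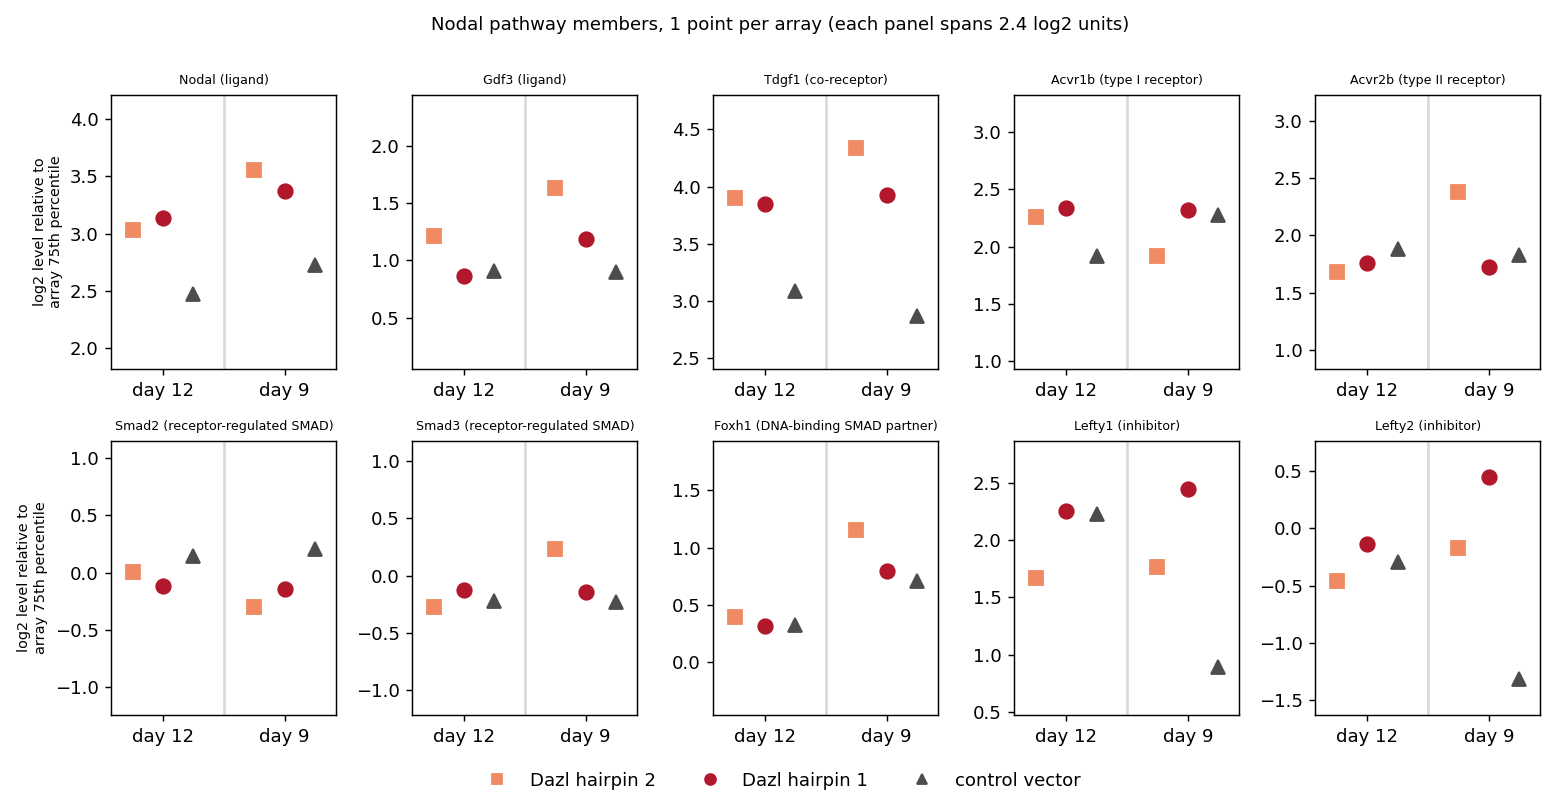
Levels of the 10 genes on the 6 arrays, with 1 panel per gene and 1 point per array; the y axis is the log2 level relative to the 75th percentile of the array, and hairpin 2, hairpin 1 and the control vector stand side by side within each day. The knockdown points of Nodal and Tdgf1 lie above both control points, those of Smad2 lie below both, and the control point of day 9 is the lowest of the 6 for Lefty1 and Lefty2.

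No gene of the 20220 tested passed an adjusted p of 0.05 for knockdown against control in limma (0%), although 2012 had an unadjusted p under 0.05 (9.95%). Without any threshold, 2 of the 10 genes were higher in all 4 pairs of a knockdown and a control array of the same day, against a background of 16.3% of all genes, and 1 was lower in all 4, against 17%. The same 3 genes showed no overlap between the groups: 9.48% of all genes had every knockdown array above both control arrays, and 10.3% had every knockdown array below both. Since the list was drawn up with these differences known, the shares are given beside the counts and nothing is read from them.

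Nodal was measured by the probe A_52_P633560, and the gene lies on chromosome 10. Its level was 3.03 with hairpin 2 and 3.14 with hairpin 1 at day 12, and 3.56 with hairpin 2 and 3.38 with hairpin 1 at day 9, against 2.47 in the day 12 control and 2.73 in the day 9 control. All knockdown arrays were above both controls, and the 2 hairpins lay close together at each day. The 4 knockdown arrays averaged 3.27 ± 0.24 (SD, n = 4), and the control arrays 2.60 ± 0.18 (SD, n = 2). The fitted log2 difference was 0.67 (SE 0.14), and the 4 pairs gave 0.56 and 0.66 at day 12 and 0.83 and 0.65 at day 9. This spread of 0.56 to 0.83 over the pairs lay above 0 throughout, and leaving out any single array kept the value between 0.61 and 0.74.

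Gdf3 encodes a ligand related to Nodal that also signals through Tdgf1 and the activin receptors. Its level was 1.22 with hairpin 2 and 0.87 with hairpin 1 at day 12, and 1.63 and 1.18 at day 9, against 0.90 in each control. Hairpin 1 at day 12 was level with the controls, and the other knockdown arrays were above them. The log2 difference was 0.33 (SE 0.20), higher in 3 of 4 pairs. It was 0.51 without the day 12 control, 0.14 without the day 9 control and 0.20 without hairpin 2 at day 9. Hairpin 2 stood above hairpin 1 at both days, with a log2 difference of 0.40 (SE 0.18) and an adjusted p of 0.469 in limma, so the 2 hairpins were not separated by the test.

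Tdgf1 anchors to the membrane and presents Nodal and Gdf3 to the receptor complex, and it is the member with the largest log2 difference between knockdown and control cells over both days. The probe A_52_P23716 read 3.90 with hairpin 2 and 3.85 with hairpin 1 at day 12, and 4.34 with hairpin 2 and 3.93 with hairpin 1 at day 9. The controls read 3.09 at day 12 and 2.87 at day 9. On the linear scale of the scanner these are signals of 9520, 9890, 15100 and 10000 in knockdown cells, against 5950 and 4600 in control cells, none of them saturated. Hairpin 2 at day 9 stood above the other 3 knockdown arrays, which lay between 3.85 and 3.93. The knockdown mean was 4.01 ± 0.22 (SD, n = 4), against a control mean of 2.98 ± 0.15 (SD, n = 2), a fitted log2 difference of 1.03 (SE 0.19). Pair by pair, the level with knockdown was 1.76-fold and 1.70-fold the control at day 12 and 2.77-fold and 2.08-fold the control at day 9. The size of the difference was not shown to change with the day: its value at day 12 minus its value at day 9 was -0.47 (SE 0.38), with an adjusted p of 0.9998 in limma. In that fit a day has a single control array, whose spread is assumed to equal that of the knockdown arrays.

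Promoters of Tdgf1 and Nodal are shown because these are the 2 members whose levels were higher in every pair. The sequences are those of RefSeq on GRCm38.p6, from 250 bases before to 50 bases after the annotated start. Tdgf1, Nodal, Acvr1b, Acvr2b and Smad3 matched an entry (5 of the 10 genes), and Gdf3, Smad2, Foxh1, Lefty1 and Lefty2 did not. The Tdgf1 promoter lies at chr9:110946109-110946408 on the minus strand and the Nodal promoter at chr10:61417722-61418021 on the plus strand. Both strands were searched for CAGAC, a short form of the box that SMAD proteins bind, for AATCCACA, a site of Foxh1, and for CACGCCC, a box bound by KLF and SP factors that was added after the Tdgf1 sequence had been read. Capitals mark the matches, and no match overlapped another.
Tdgf1: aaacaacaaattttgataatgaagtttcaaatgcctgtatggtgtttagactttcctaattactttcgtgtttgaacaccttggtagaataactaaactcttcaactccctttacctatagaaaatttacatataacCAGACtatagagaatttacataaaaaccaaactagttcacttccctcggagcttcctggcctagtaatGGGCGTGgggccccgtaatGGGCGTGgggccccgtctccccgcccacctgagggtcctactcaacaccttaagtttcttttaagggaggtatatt
Nodal: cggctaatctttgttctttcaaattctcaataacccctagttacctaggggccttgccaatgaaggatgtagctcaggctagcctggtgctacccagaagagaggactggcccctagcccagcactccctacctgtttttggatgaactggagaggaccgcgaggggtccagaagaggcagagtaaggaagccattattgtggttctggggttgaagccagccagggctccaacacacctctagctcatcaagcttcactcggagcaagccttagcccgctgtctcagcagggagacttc
Tdgf1 held 1 copy of CAGAC, whose first base is at -113 relative to the start, and 2 copies of CACGCCC on the opposite strand, printed as GGGCGTG, which begin at -45 and -26. Over all 32851 mouse promoters in the table, 49.6% held CAGAC, 8.4% held CACGCCC and 1.39% held at least 2 copies of it, while 0.9% held AATCCACA. Nodal held none of the 3 motifs in this window, which says only that these letters are not there. Among the other 3 members that were searched, Acvr2b held 1 copy of CAGAC, and Acvr1b and Smad3 held no match.

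**Figure D2:**
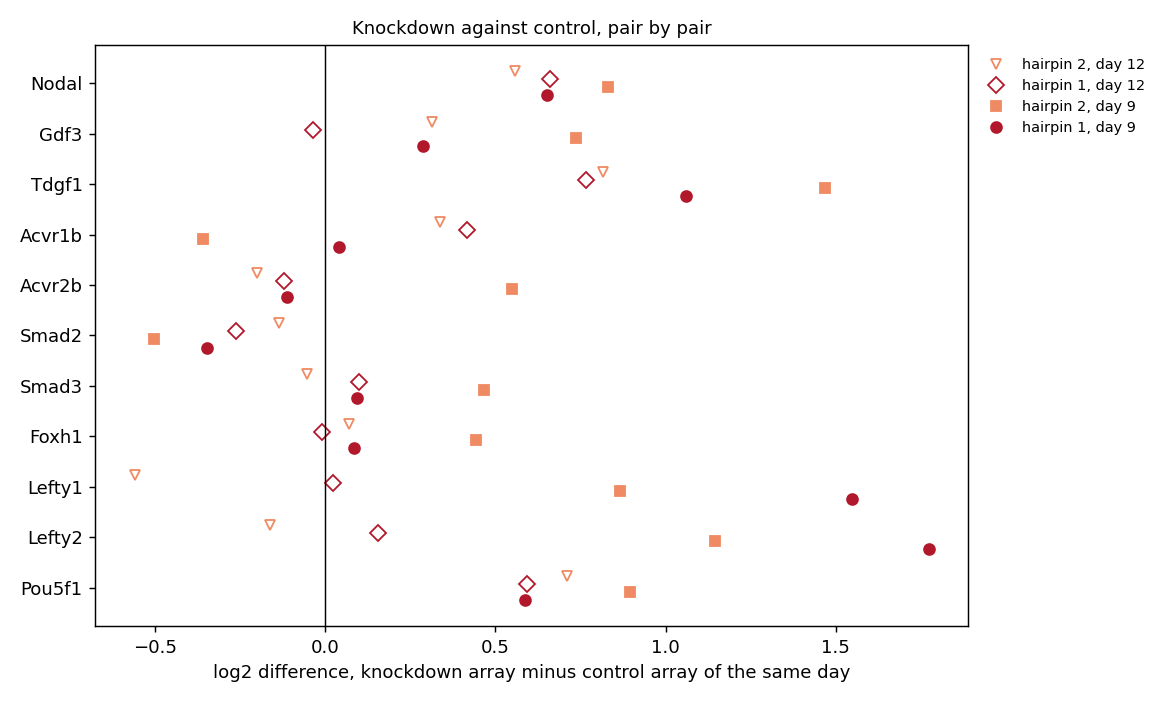
Log2 difference between each knockdown array and the control array of the same day (x axis) for the 10 genes and Pou5f1, with 1 symbol per hairpin and day, open for day 12 and filled for day 9. All 4 symbols of Nodal, Tdgf1 and Pou5f1 lie right of 0 and all 4 of Smad2 left of it, while the Lefty1 and Lefty2 symbols of day 9 stand far to the right of those of day 12.

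Acvr1b (Alk4) is the type I receptor that phosphorylates Smad2 and Smad3. Its brighter probe, A_52_P373893, read 2.26 and 2.34 with hairpin 2 and hairpin 1 at day 12, then 1.92 and 2.32 at day 9, against 1.92 in the day 12 control and 2.28 in the day 9 control. Knockdown and control arrays covered the same range. The log2 difference was 0.11 (SE 0.20), and a second, much dimmer probe gave 0.14 (SE 0.23). The sign turned with the controls, to -0.16 without the day 12 control.

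Acvr2b is a type II activin receptor, which binds the ligand and activates the type I receptor. It read 1.68 and 1.76 with hairpin 2 and hairpin 1 at day 12, then 2.38 and 1.72 at day 9, against 1.88 and 1.83 in the controls of day 12 and day 9. Hairpin 2 at day 9 was the highest array, and the other 5 lay between 1.68 and 1.88. The log2 difference was 0.03 (SE 0.22), less than its error, as for Acvr1b, and its sign turned to -0.16 without the day 9 control and -0.14 without hairpin 2 at day 9.

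Smad2 and Smad3 carry the signal to the nucleus. Smad2 read 0.01 with hairpin 2 and -0.12 with hairpin 1 at day 12, and -0.30 and -0.15 at day 9, against 0.14 in the day 12 control and 0.20 in the day 9 control. It was the only member lower in all 4 pairs, with a log2 difference of -0.31 (SE 0.14), or 0.805-fold the control. Smad3 had 3 probes. The brightest, A_52_P352277, read -0.28 and -0.12 at day 12 and 0.23 and -0.14 at day 9 with hairpin 2 and hairpin 1, against -0.22 and -0.23 in the controls, and its log2 difference was 0.15 (SE 0.17). The groups overlapped, the other probes gave 0.17 (SE 0.24) and 0.04 (SE 0.24), and the last of these was well above background on 4 of 6 arrays only.

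Foxh1 encodes the forkhead protein that brings SMAD complexes to DNA, and its levels separated the arrays by day. It read 0.39 with hairpin 2, 0.31 with hairpin 1 and 0.32 with the control vector at day 12, against 1.15, 0.80 and 0.71 with the same vectors at day 9. All day 12 arrays lay below all day 9 arrays, a lack of overlap that 8.15% of all genes showed in this direction and 8.96% in the other. The day 12 arrays averaged 0.34 ± 0.04 (SD, n = 3) and the day 9 arrays 0.89 ± 0.24 (SD, n = 3), a log2 difference of -0.54 (SE 0.15), or 0.685-fold, which did not pass the test in limma (adjusted p = 0.249). The knockdown difference of Foxh1 was 0.15 (SE 0.16).

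Lefty1 and Lefty2 encode secreted antagonists of Nodal and lie close together on chromosome 1. Lefty1 read 1.67 with hairpin 2 and 2.26 with hairpin 1 at day 12, and 1.76 and 2.44 at day 9, against 2.23 in the day 12 control and 0.90 in the day 9 control. Lefty2 read -0.46 and -0.14 at day 12 and -0.17 and 0.45 at day 9 with hairpin 2 and hairpin 1, against -0.29 in the day 12 control and -1.32 in the day 9 control. For both genes the day 9 control was the lowest array of the 6, while the other 5 arrays read 1.67 to 2.44 for Lefty1 and -0.46 to 0.45 for Lefty2.

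At day 9 the difference between knockdown and control was 1.21 (SE 0.40) for Lefty1 and 1.46 (SE 0.34) for Lefty2 on the log2 scale. At day 12 it was -0.27 (SE 0.40) for Lefty1 and -0.0032 (SE 0.34) for Lefty2. Without the day 9 control array, which alone sets the day 9 difference, the knockdown differences of 0.47 for Lefty1 and 0.73 for Lefty2 over both days became -0.27 and -0.0032. The change in the effect between the days was -1.48 (SE 0.57) for Lefty1 and -1.46 (SE 0.49) for Lefty2, with an adjusted p of 0.9998 for each in limma. No gene of the 20220 passed that test (0%), and 349 had an unadjusted p under 0.05 (1.73%).

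Hairpin 2 lay below hairpin 1 at both days for both Lefty genes, with log2 differences of -0.58 at day 12 and -0.68 at day 9 for Lefty1 and of -0.32 and -0.63 for Lefty2. Neither difference passed the test, with adjusted p of 0.552 for Lefty1 and 0.643 for Lefty2 in limma. Each vector had the same position on both slides, so vector and slide position cannot be told apart. Counted over all 10 genes, hairpin 2 was above hairpin 1 at both days for Gdf3, Tdgf1 and Foxh1, and below it at both days for Acvr1b, Lefty1 and Lefty2, against 32.2% and 26.6% of all genes. In limma 14 genes passed the hairpin comparison (0.0692%), none of them among the 10.

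The Lefty genes were set against their own chromosome, whose genes were on the whole lower in knockdown cells. The median log2 difference between knockdown and control over the 840 chromosome 1 genes above background on all 6 arrays was -0.18, and 27.5% of them were higher in knockdown cells. At day 9, 4 of these genes had a larger difference than Lefty1 and 2 a larger one than Lefty2, while at day 12 the numbers were 566 and 304. In the gene order of GRCm38.p6, the protein-coding gene Sde2 lies outward of Lefty2 and Tmem63a outward of Lefty1.

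Tmem63a, an ion channel gene beside Lefty1, read -0.45 with hairpin 2 and -0.07 with hairpin 1 at day 12, and -0.33 and -0.15 at day 9, against -0.02 in the day 12 control and -0.57 in the day 9 control. As for the Lefty genes, the day 9 control was its lowest array and hairpin 1 exceeded hairpin 2 at both days, on a smaller scale: the day 9 difference was 0.33 (SE 0.27). Sde2, beside Lefty2, had the opposite sign at day 9, -1.14 (SE 0.73), which rests on hairpin 2 at day 9, at 1.41 while the other 5 arrays read 3.09 to 3.46.

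**Figure D3:**
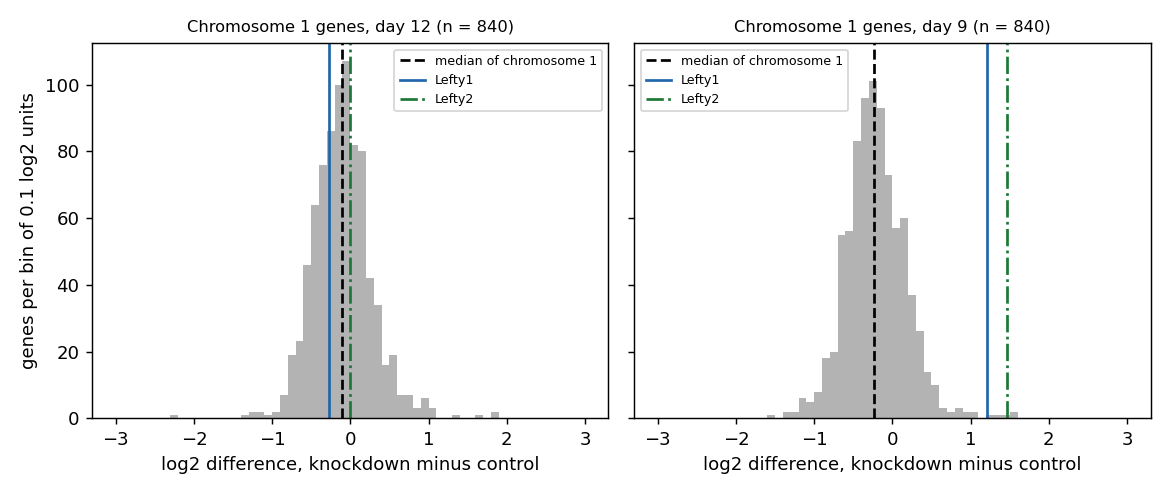
Distribution of the log2 difference between knockdown and control over 840 chromosome 1 genes (x axis; bars count genes per bin), at day 12 on the left and day 9 on the right, with the median of the chromosome and the values of Lefty1 and Lefty2 as vertical lines. Both Lefty genes lie in the far right tail at day 9, at 1.21 and 1.46, and within the bulk at day 12, at -0.27 and -0.0032.

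Day 12 was compared with day 9 over all vectors. The 3 arrays of a day shared a slide and a scan, and these cannot be told apart from the day. Among the 10 genes, 3 had a higher mean at day 12 and 7 a lower one, with a median log2 difference of -0.13, beside 0.0027 over all genes. None passed the test, which 30 genes did (0.148%); 2 of the 10, Nodal and Foxh1, had an unadjusted p under 0.05, as did 2435 of all genes (12%). Nodal was -0.34 (SE 0.13, adjusted p = 0.389) and lower at day 12 with every vector, although the 2 ranges of arrays overlapped. Tdgf1 was at -0.10 (SE 0.18, adjusted p = 0.863), Gdf3 at -0.24 (adjusted p = 0.688), Lefty1 at 0.35 (adjusted p = 0.761), and Lefty2 at 0.05 (adjusted p = 0.965).

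Likeness of pattern was measured by Pearson's r of the log2 levels over the 6 arrays, against 18481 genes above background on all of them. The 6 points share vectors, slides and differentiation days, so r is a description only. Tdgf1 and Nodal had an r of 0.91, which placed Tdgf1 at rank 343 for Nodal and Nodal at rank 215 for Tdgf1. Smad2 ran opposite to both, with r of -0.94 to Nodal and -0.95 to Tdgf1. Lefty1 and Lefty2 had an r of 0.92 with each other, and r of 0.24 and 0.56 with Nodal. The genes most like Nodal were Nphs1 (nephrin, r = 0.997), Kng1 (kininogen, r = 0.996), Asphd1, an unnamed transcript listed as ENSMUST00000053562, and the metalloprotease gene Adamts9 (r = 0.993). Those most like Tdgf1 were the entries AK043110 (r = 0.993) and NAP066348-1, the thioesterase gene Acot3 (r = 0.990), the semaphorin gene Sema5b and the growth factor gene Fgf3 (both r = 0.989).

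Pou5f1, whose reporter the sort reads, followed Tdgf1 with an r of 0.977 at rank 16. It read 4.31 and 4.19 with hairpin 2 and hairpin 1 at day 12, then 4.41 and 4.11 at day 9, against 3.60 in the day 12 control and 3.52 in the day 9 control. The log2 difference between knockdown and control was 0.70 (SE 0.15), higher in 4 of 4 pairs, so the gene behind the gate was itself higher in the knockdown cells. Its part in the differences of Nodal and Tdgf1 was not tested.

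Another 57 genes of Nodal, activin and transforming growth factor beta signalling were listed by role, and 54 of them could be measured. In knockdown cells 37 were higher and 17 lower (68.5% higher, against 49.8% of all genes), with a median log2 difference of 0.16. None passed the test in limma, and 8 higher and 1 lower had an unadjusted p under 0.05. Differences between the roles were not tested. All 6 genes of ligand processing and co-receptors were higher (median 0.22), among them Pcsk6 (0.28, SE 0.14) and Furin (0.32, SE 0.22), which cleave the Nodal precursor. Of 7 other ligands 5 were higher (median 0.18), and of 16 inhibitors 12 were higher (median 0.14). By day, the ligands were higher in 6 of 7 cases at day 12 and in 3 of 7 at day 9, and the inhibitors in 10 and 11 of 16.

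Over both days, 4 of 5 other receptors had lower means (median -0.13), but at day 12 only 2 of 5 did (median 0.04), against 4 of 5 at day 9. Of 7 partners of the SMADs, grouped as nuclear partners although Zfyve9 acts at the receptors, 6 had lower means (median -0.23). It was 5 of 7 at day 12 and 6 of 7 at day 9. The shared partner Smad4 had a log2 difference of -0.07 (SE 0.17) and the coactivator Ep300 one of -0.44 (SE 0.31). The partners lower in all 4 pairs were 4 of 7, against 17% of all genes. They were Ep300, Trim33 (-0.23, SE 0.15), Crebbp (-0.25, SE 0.16) and Zfyve9 (-0.31, SE 0.17), an anchor that presents Smad2 and Smad3 to the receptors. For Ep300, hairpin 2 at day 9 was at -2.34, while the other arrays read -1.36 to -1.10.

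Reported target genes of the pathway were higher in 12 of 13 measured cases (median 0.38), against 49.8% of all genes. Of these 13, 7 were higher in all 4 pairs, against 16.3% of all genes. By day, 11 of 13 were higher at day 12 and 10 of 13 at day 9, against 51.6% and 47.3% of all genes. The 3 pathway genes with the largest knockdown differences were Inhbb, which encodes a subunit of activin B and of inhibin B (1.25, SE 0.41, adjusted p = 0.429), the endoderm regulator Foxa2 (0.92, SE 0.27, adjusted p = 0.379) and the endoderm regulator Sox17 (0.83, SE 0.28, adjusted p = 0.437). Inhbb read 0.58 and 0.87 with hairpin 2 and hairpin 1 at day 12, then -1.19 and 0.22 at day 9, against -0.90 and -1.36 in the controls of day 12 and day 9. It was higher in 4 of 4 pairs, but hairpin 2 at day 9 lay between the controls. With the mean of its probes Inhbb was at 0.72, below Foxa2 (0.92) and Sox17 (1.01), so the order of the 3 depends on the probe, and without the day 12 control it was at 0.88. The list of targets also names genes that mark other cell states: 2 are naive pluripotency markers, 1 is a marker of primed epiblast, 2 of endoderm and 4 of mesoderm. The 5 measured targets found in no marker list had a median of 0.25, with 4 of 5 higher.

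**Figure D4:**
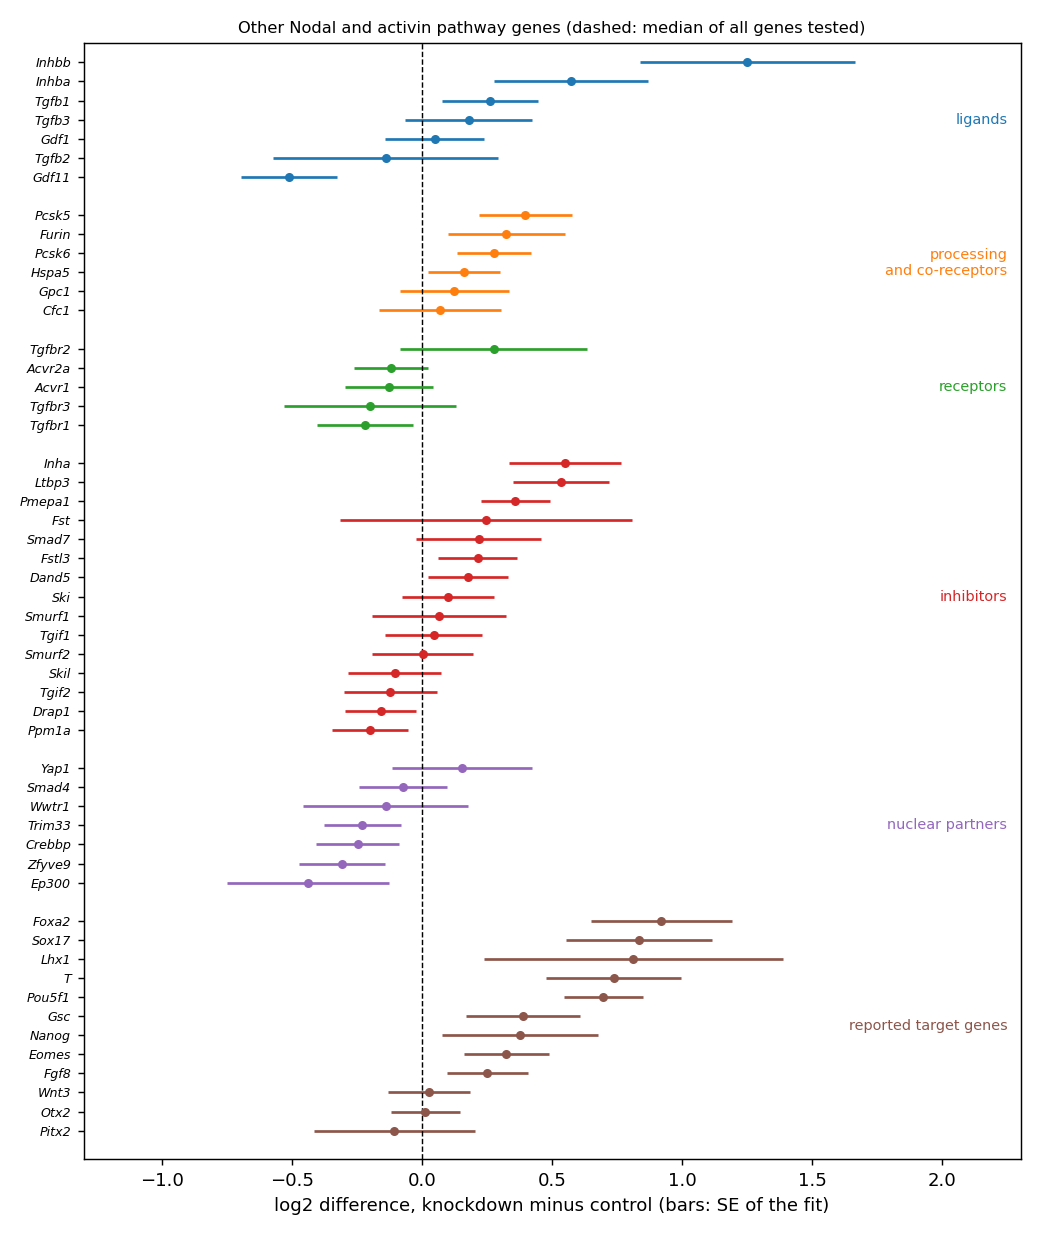
Log2 difference between knockdown and control (x axis) for other pathway genes grouped by role, each with a bar of 1 SE of the fit; the dashed line is the median of all genes tested, and Cer1, which was not well above background on all 6 arrays, is not drawn. Points of the target genes lie mostly right of the line (median 0.38). Those of the group named nuclear partners, which includes the receptor anchor Zfyve9, lie mostly left of it (median -0.23).

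Between the hairpins, the pathway genes with the largest differences were the target gene Lhx1, a regulator of head and node development, and Fst, which encodes the activin-binding protein follistatin. Lhx1 read -3.18 at day 12 and -2.93 at day 9 with hairpin 2, against -4.77 and -4.48 with hairpin 1. Its log2 difference was 1.57 (SE 0.18), with an adjusted p of 0.0684 that ranged from 0.000199 to 0.269 over the alternative settings, and the difference was 0.93 with normexp background correction. Fst read -5.53 and -5.37 with hairpin 2, against -3.86 and -3.97 with hairpin 1, a difference of -1.53 (SE 0.17, adjusted p = 0.0680, with a range of 0.000275 to 0.905). With normexp correction the Fst difference was -0.055. Both genes kept hairpin 2 on the same side of hairpin 1 at each day, and neither passed the test. The receptor gene Tgfbr2 followed at -0.91 (SE 0.19, adjusted p = 0.174).

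Over the days, Inhbb was at 0.96 (SE 0.39, adjusted p = 0.412), and the organizer gene Gsc at 0.49 (SE 0.21, adjusted p = 0.434). Inhbb was at 0.52 with the mean of its probes and 0.49 without hairpin 2 at day 9. Gsc was at 0.31 with normexp correction, 0.32 without hairpin 2 at day 12 and 0.74 without either control. Among 54 genes, 25 were higher at day 12 and 29 lower, with none past the threshold and 4 with an unadjusted p under 0.05, against the 12% of all genes given above. For the change of the knockdown effect between the days, Tgfb2 (1.06, SE 0.82) and Gsc (0.75, SE 0.37) were among the largest values, each with an adjusted p of 0.9998. Normexp correction gave 0.30 for Tgfb2 and 0.49 for Gsc, and leaving out a knockdown array of day 12 moved Tgfb2 to 0.45 (hairpin 2) or 1.68 (hairpin 1).

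Markers of cell states differed between the same arrays. Summed levels of a marker list are given as multiples of the 75th percentile of the array. The 10 germ cell markers other than Dazl summed to 95.2 to 215 on the knockdown arrays, against 255 and 194 on the control arrays of day 12 and day 9, and were below the control of the same day in each pair. This sum is carried mostly by Stra8, at log2 levels of 5.84 to 7.68. Their mean log2 level was 1.68 and 1.59 with hairpin 2 and hairpin 1 at day 12, against 1.89 in the control. At day 9 it was 1.38 and 1.40, against 1.78. With Dazl counted, 10 of 11 germ cell markers were lower in knockdown cells (median -0.32). The 13 naive pluripotency markers summed to 818 to 975, against 712 and 930 in the controls, and 11 of 13 were higher (median 0.22). The sum is carried by Dppa5a, at log2 levels of 8.96 to 9.48. The mean log2 level of the 13 markers was 4.30 and 4.18 with hairpin 2 and hairpin 1 at day 12, against 3.86 in the control, and 4.33 and 4.34 at day 9, against 4.13. The counts by day were 12 of 13 markers higher at day 12 and 7 of 13 at day 9, beside 51.6% and 47.3% of all genes. Among those higher over both days were Tcl1 (0.97, SE 0.31) and Nr0b1 (0.92, SE 0.22), while Klf2 (-0.30, SE 0.25) and Sox2 (-0.10, SE 0.18) were lower. The 10 markers of primed epiblast, in which Nodal signalling is known to be active, summed to 9.99 to 14.3, against 15.0 and 14.6, with 6 of 10 higher and a median of 0.02.

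Sums of markers of differentiated cells were higher with either hairpin than in the control of the same day, although no single marker passed the test. The 14 endoderm markers summed to 5.31 to 6.49, against 3.45 and 3.65 in the controls, with 11 of 14 higher (median 0.74). The 9 mesoderm markers summed to 2.53 to 3.06, against 2.20 and 2.33, with 9 of 9 higher (median 0.32). The 12 fibroblast markers summed to 10.6 to 17.1, against 7.46 and 13.0, with 12 of 12 higher (median 0.70). Very dim measured markers included Lum (-9.02) and Cer1 (-8.79) in the day 9 control. The endoderm genes Ttr and Alb were too dim to be tested, Cer1 was not well above background on all arrays, and neither were the fibroblast genes Lum, Dcn and Lox. The part of these markers in the differences of Nodal, Tdgf1 and Smad2 was not tested, and in sorted bulk samples fewer cells of a type and less RNA per cell cannot be told apart.

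**Figure D5:**
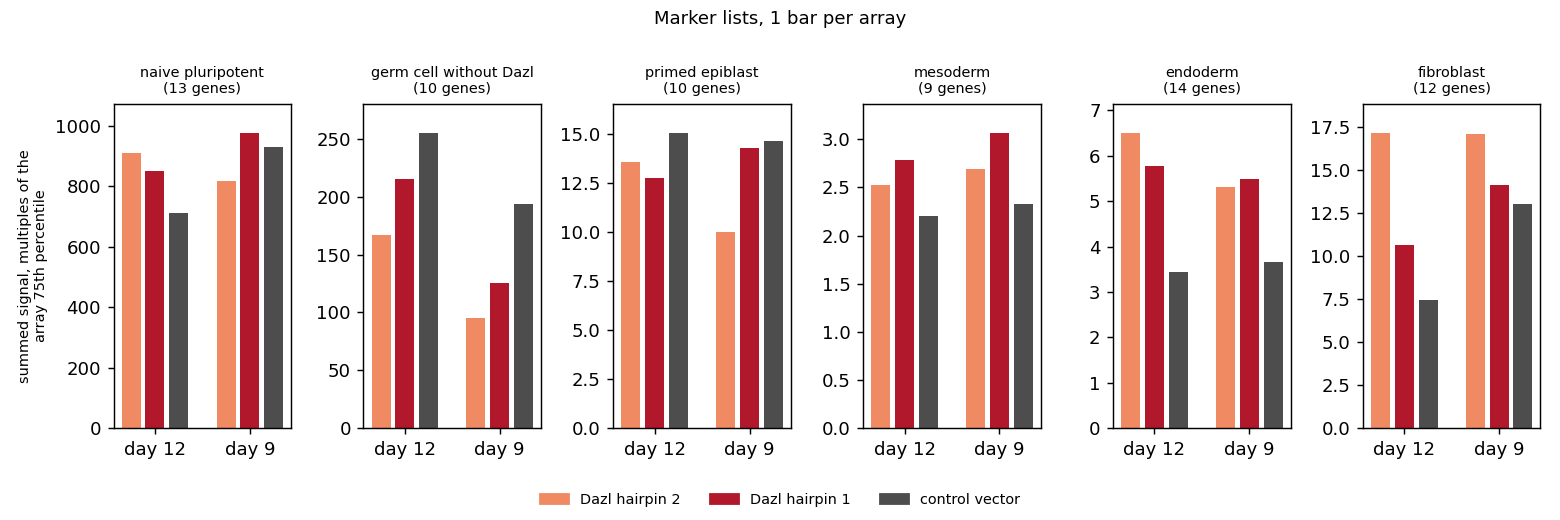
Summed signal of 6 marker lists on the 6 arrays (y axis, multiples of the 75th percentile of the array; 1 bar per array; each panel has its own scale from 0), with hairpin 2, hairpin 1 and the control vector side by side within day 12 and day 9. Within each day germ cell markers are highest in the control, a sum carried mostly by Stra8. Endoderm, mesoderm and fibroblast markers are lowest in the control of the same day. Naive pluripotency markers span 712 to 975, a sum carried by Dppa5a.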

How the data were processed

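Total RNA of 6 samples was labelled with Cy3 and hybridised to Agilent whole mouse genome arrays, 1 array per sample. Per the file headers, the scanner files hold spot intensity values from Feature Extraction 9.1.3.1, background-subtracted and spatially detrended, with surrogates for dim spots, and not normalized between arrays. The deposited table holds a ratio to a constant of each array. Where it was used as an alternative, ratios below 0.119 were first raised to that value. Both deposited file types carry a quality score, used only to match the 41529 table entries to spots.

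The processed intensities of the 41174 probes that were not controls, minus 36 outlier values, were put on a log2 scale relative to the 75th percentile of the deposited values of each array. A probe was kept if at least 2 of 6 arrays had it well above background (30190), and the brightest probe stood for each gene, which gave 20220 genes. Names came from accessions, symbols and synonyms through a RefSeq gene table for GRCm38.p6, and from the array's own name for 8468 probes. That table also gave chromosomes and the order of genes.

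Two-sided tests were run with limma 3.58.1 in R 4.3.3 over all genes, with Benjamini-Hochberg adjustment and a threshold of 0.05, and were checked on simulated data. One fit with vector class and day gave knockdown and day; fits with vector and day, and with 4 groups, gave the hairpin difference and the change of the knockdown effect. Day is also the slide and scan block. Hairpins are numbered as in the sample titles; the deposited files carry other hairpin numbers. The members and gene lists were chosen with earlier results of these data known. Named were all 10 members, and of the other pathway genes those past the threshold and the 3 largest differences per comparison among genes above background on all 6 arrays. A few genes that this rule or the gene order would name are not reported here. Also named were the 5 genes most like Nodal and Tdgf1, and Pou5f1. Examples given within a role, marker list or chromosome region beyond these were chosen after their values were seen. Arrays with the same vector deviated together across the days, with r across genes of 0.38 for control, 0.54 for hairpin 1 and 0.26 for hairpin 2. For different vectors r was -0.34 to -0.02. Vector was therefore tried as a replicate block in an alternative fit. Knockdown is itself a difference between vectors, so it cannot be tested within that block. The main fit takes arrays of the same vector as independent, so its SE for knockdown may be too small. The other alternatives were normexp background correction, quantile normalization, no filter, a strict filter, the mean of probes, the deposited table, a trended and robust prior, and leaving out each array. The number of arrays limits the precision.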

Additional observations from a re-analysis of the deposited data

Results flagged for a closer look

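Among the 4 knockdown arrays, 2 of the 10 genes had an array that stood apart from the rest. Chance alone gives this for about 1 in 20 groups of like arrays, but these 4 differ in day and hairpin. The share over all genes was not computed, so nothing is read from the count. For Tdgf1, hairpin 2 at day 9 (4.34) lay above the next array (3.93), and this gap made up 0.840 of the range of the 4 arrays. For Acvr2b, hairpin 2 at day 9 (2.38) lay above the next array (1.76), and the gap made up 0.886 of the range. The same array was also the highest of the 4 for Nodal, Gdf3, Smad3 and Foxh1 and the lowest for Smad2 and Acvr1b, without standing apart from the others by this measure. Genes outside the 10 were extreme on this array too, such as Ep300 and Sde2 above, so this is not particular to the members.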

How the results depend on the processing

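No member passed the threshold for day, hairpin or the change of the knockdown effect under any setting. The directions of Nodal, Tdgf1 and Smad2 between knockdown and control were kept in every setting: Nodal 0.61 to 0.74, Tdgf1 0.79 to 1.26 and Smad2 -0.43 to -0.20. Normexp correction moved the median of all genes by 0.12 for knockdown, -0.12 for day, 0.16 for hairpin and -0.16 for the change of the knockdown effect.

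Counts of genes past the threshold moved with the setting, and the cause was not tested. For knockdown (0), normexp gave 2, the strict filter 8, the mean of probes 1, the trended prior 2 and leaving out any array 0 to 0. For day (30), normexp gave 1, no filter 0 and leaving out an array 0 to 20, with 20 only without hairpin 1 at day 9. For hairpin (14), normexp gave 119, quantile normalization 1, no filter 1, the strict filter 52, the mean of probes 2, the deposited values 2, the trended prior 72, and leaving out an array 0 to 828. With the vector as a replicate block the counts were 20 for knockdown, 328 for day, including all 30, and 66 for the change of the knockdown effect. For knockdown this block leaves the spread between hairpins out of the error, so nothing is read from the 20. Pairing through the block called no member for day or for the change of the knockdown effect. The change of the effect cannot be fitted without a control array.

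Signs of small differences turned as follows. For knockdown, leaving out single arrays gave -0.16 to 0.38 for Acvr1b, -0.16 to 0.22 for Acvr2b, -0.27 to 1.21 for Lefty1 and -0.0032 to 1.46 for Lefty2. For day, Acvr1b was 0.071 with normexp and 0.027 with quantile normalization, and Lefty2 was -0.029 in the deposited values. For hairpin, Nodal was -0.019 and Smad2 0.017 with normexp, and Smad3 -0.21 with the mean of probes. The change of the knockdown effect of Smad3 was 0.23 with the mean of probes. Leaving out single arrays gave ranges across 0 for day in Acvr1b (-0.16 to 0.18), Lefty1 (-0.14 to 0.69), Lefty2 (-0.44 to 0.37), Tdgf1 (-0.26 to 0.063) and Acvr2b (-0.36 to 0.022). For hairpin the same held for Nodal (-0.10 to 0.18), Smad2 (-0.17 to 0.15), Smad3 (-0.15 to 0.37), Lefty2 (-0.95 to 0.010), Tdgf1 (-0.023 to 0.48), Acvr1b (-0.49 to 0.013) and Acvr2b (-0.082 to 0.66).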
